A study of Homo sapiens with 21 samples.

Results

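Glutathione is the main small thiol of the cell and is made from glutamate, cysteine and glycine. Glutamate-cysteine ligase, built from the catalytic subunit GCLC and the modifier subunit GCLM, joins glutamate to cysteine in the rate-limiting step, and glutathione synthetase, GSS, adds glycine. When glutathione is spent on reducing peroxides it is oxidized, and glutathione reductase, GSR, returns it to the reduced form with electrons from NADPH. NADPH is supplied by the oxidative branch of the pentose phosphate pathway, to which PGD, phosphogluconate dehydrogenase, belongs, and by malic enzyme, ME1, in the cytosol. The transketolase TKT and the transaldolase TALDO1 rearrange the sugars of the non-oxidative branch and so return carbon to the oxidative branch. Genes of this set, GCLC and GCLM foremost, are textbook targets of the oxidant-responsive transcription factor NRF2. The 8 genes GCLC, GCLM, GSS, GSR, PGD, TKT, TALDO1 and ME1 were chosen by symbol from a table of 23368 genes, and all 8 were found once each.

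The table came from mRNA sequencing of hTERT-HPNE, a pancreatic cell line immortalized with telomerase that is not transformed and was kept in medium with EGF and puromycin. Cells were left untreated or received fresh medium with either 300 µM H2O2, an oxidant, or 400 ng/ml neocarzinostatin (NCS), a drug that breaks both DNA strands, and RNA was taken at 4, 8 and 24 h. That gave 7 groups of 3 biological replicates, 21 libraries in all, and the question asked of the 8 genes was how their mRNA moved under each stress and where the stresses differed. The untreated cells were taken at time 0, and no untreated group was sampled at 4, 8 or 24 h, so a difference from untreated cells holds the effect of the treatment together with that of fresh medium and time, which cannot be told apart. The comparison of H2O2 with NCS at the same time does not carry that difference.

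Every value below is an rLog value, the log2 of a normalized read count after DESeq2's regularization, which pulls differences toward 0. One unit is a doubling on that scale, and folds given here are powers of 2 of such differences. The values are not divided by gene length, so the levels of different genes were not compared. Read counts and depth were not in the table. Library medians ran from 7.15 to 7.19 on this scale. Of the markers of the line, NES and VIM were at 12.1 and 17.1 in untreated cells, and the keratins KRT8 and KRT18 at 7.78 and 11.6. The acinar enzymes CPA1 and AMY2A stood at -2.18 and -2.31 and the islet hormones GCG, SST and PPY at -1.90, -2.18 and -2.04, near the lowest value of the whole table, -2.31. PRSS1 and INS were listed at 0, as 3674 genes were in every library, and CEL was at 3.86. NES, an intermediate filament gene of the line, itself differed from untreated cells by -0.13, -0.25 and -0.28 at 4, 8 and 24 h of H2O2, and KRT8 by 0.39, 0.21 and 0.20. KRT18 differed by 0.08, -0.12 and -0.13 and VIM by 0.17, 0.03 and -0.26, and all of these but VIM at 8 h were called. Under NCS NES and KRT18 were higher at 4 h (0.14 and 0.17), none of the 4 was called at 8 h, and at 24 h KRT8 was higher (0.17) and VIM and KRT18 lower (-0.16 and -0.23). Between H2O2 and NCS all 4 were called at 4 h, NES by -0.27, VIM by 0.13, KRT8 by 0.30 and KRT18 by -0.09, and 3 of 4 at each later time. The part of these 4 genes in the results was not tested. One library stood apart from its group: H2O2 8 h replicate 2 lay 14.7 and 15.1 from the other H2O2 8 h libraries, as a Euclidean distance over all genes, against 11.4 between those and 8.94 to 11.2 within the other groups. Calls at 8 h of H2O2 were therefore also made without it, for the 8 genes and for the other lists.

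RefSeq promoter windows of build GRCh38.p14, from 250 bases before to 50 bases after the start site, were found for 6 of the 8 genes, all but GSS and GSR. They were searched on both strands for TGACNNNGC, the core of the antioxidant response element to which NRF2 binds with a small MAF partner. The motif was present in the windows of GCLM, ME1 and PGD and absent from those of GCLC, TKT and TALDO1, that is in 3 of 6, where 13.3% of all 35116 windows hold it. The 3 stretches are printed to show where the motif lies in the genes whose windows hold it. Each is given 5′ to 3′ on the strand of its gene with the motif in capitals.
GCLM: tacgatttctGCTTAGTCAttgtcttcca
ME1: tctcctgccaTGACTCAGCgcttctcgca
PGD: cctcgccgggGCAATGTCAtctaggtgct
The GCLM stretch is chr1:93909446-93909474 on the minus strand, with the motif 25 bases before the start site and read on the strand opposite to the gene as TGACTAAGC. The ME1 stretch is chr6:83431170-83431198 on the minus strand, with the motif 128 bases before the start site on the strand of the gene, and a further match in the window, not printed, reaches past the start site. Its first letters also spell TGACTCA, the AP-1 site, which on either strand occurs in 4.95% of windows. The PGD stretch is chr1:10398853-10398881 on the plus strand, with the motif 192 bases before the start site and read on the opposite strand as TGACATTGC. A match is a run of letters and not a measured binding site, and a window without one says nothing of sites elsewhere.

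**Figure D1:**
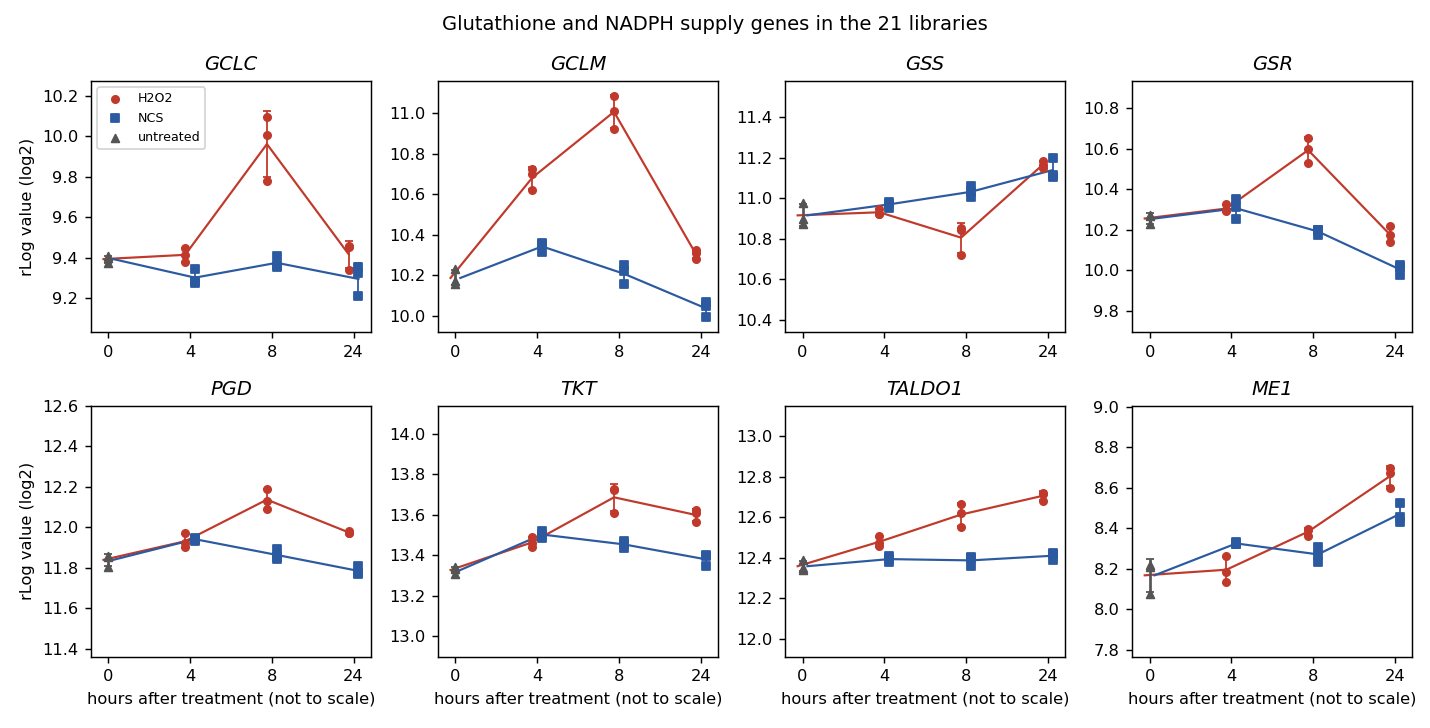
rLog value (log2 scale, vertical axis) of each of the 8 genes in all 21 libraries against hours after treatment (horizontal axis, not to scale), with a point for each library (triangles untreated, circles H2O2, squares NCS), lines through the group means and error bars of 1 SD (n = 3). GCLC, GCLM and GSR peak in the H2O2 8 h libraries, whereas TALDO1 and ME1 are highest in the H2O2 24 h libraries and GSS is lowest in the H2O2 8 h ones.

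After 8 h of H2O2 the transcripts of glutathione synthesis, glutathione recycling and NADPH supply were higher than in untreated cells, with GSS as the exception, and the genes differed in when they rose and how long they stayed up. By limma, at a Benjamini-Hochberg adjusted p under 0.05, 4 of the 8 genes were higher than in untreated cells and none lower after 4 h of H2O2. After 8 h 7 were higher and 1 lower, and after 24 h 6 were higher and 1 lower. In the same comparisons 45.9%, 37.4% and 40% of the 19694 genes tested were called in either direction, with 26.2%, 18.8% and 20.2% called higher and 19.7%, 18.6% and 19.9% called lower. At 4 h the 4 calls of 8 are thus near the share over all genes. The H2O2 and untreated libraries did not overlap for 5, 8 and 7 of the 8 genes at the 3 times, against 49.5%, 42% and 59.7% of all genes. The median difference over the 8 genes was 0.07, 0.32 and 0.19 in order of time. None of the 8 differed by more than 1 unit at any time of H2O2, a limit that 0.696%, 0.518% and 1.61% of all genes passed with the adjusted p. In bulk RNA, more message per cell and a change in which cells were still there to be harvested cannot be told apart.

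GCLM, the modifier subunit that raises the efficiency of the ligase, moved most of the 8. Its rLog values were 10.23, 10.17 and 10.16 in untreated cells, 10.70, 10.62 and 10.72 after 4 h of H2O2, 11.09, 10.92 and 11.01 after 8 h, and 10.28, 10.31 and 10.33 after 24 h. Every H2O2 library was above every untreated one at each time, and the 8 h libraries were above all others of the study. The difference from untreated cells was 0.50 ± 0.04 (SE) after 4 h and 0.82 ± 0.04 after 8 h, a 1.77-fold change (adjusted p = 5.52e-09 and 3.2e-11). By 24 h it had dropped to 0.12 ± 0.04 (adjusted p = 0.0156). That last call was lost without untreated replicate 2 (0.11), untreated replicate 3 (0.11) or H2O2 24 h replicate 3 (0.11). The spread of the 7 group means of GCLM, 0.97, was wider than that of 94.8% of genes with a mean of at least 5.

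GCLC, which holds the active site of the ligase, rose at 8 h only among the H2O2 times. Untreated cells had 9.41, 9.37 and 9.40, and H2O2 gave 9.45, 9.38 and 9.42 after 4 h, 10.10, 9.78 and 10.01 after 8 h, and 9.46, 9.34 and 9.45 after 24 h. The 8 h libraries did not overlap with any other group, whereas the 4 h and 24 h libraries overlapped with untreated cells. The difference was 0.57 ± 0.06 at 8 h, or 1.48-fold (adjusted p = 3.23e-07), against 0.02 ± 0.06 at both 4 h and 24 h (adjusted p = 0.831 and 0.823). At 4 h, then, GCLM was higher than in untreated cells and GCLC was not called. The lowest of the 8 h libraries of GCLC was replicate 2, the one that stood apart, and without it the difference was 0.66, with GCLM at 0.86. Exons of GCLC overlap those of an antisense and of a same-strand noncoding gene in the GENCODE annotation, and whether reads were counted by strand is not given in the sources used here, so part of its reads may belong to those genes.

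GSS went the other way at 8 h. Its rLog values were 10.87, 10.90 and 10.98 in untreated cells, 10.92, 10.95 and 10.92 at 4 h of H2O2, 10.72, 10.84 and 10.85 after 8 h, and 11.15, 11.18 and 11.16 after 24 h. The 8 h libraries were below all untreated libraries and the 24 h libraries above all of them. The 8 h difference was -0.11 ± 0.03 (adjusted p = 0.0144) and the 24 h difference 0.25 ± 0.03 (adjusted p = 5.34e-06). The fall at 8 h was small and not firm: it was no longer called without untreated replicate 3 (-0.08) or H2O2 8 h replicate 1 (-0.07), or when only these groups were fitted (adjusted p = 0.147). The rise at 24 h kept its call in every setting but a limit of 0.58 on the difference.

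GSR, which recycles oxidized glutathione, followed the ligase subunits at 8 h. It stood at 10.23, 10.27 and 10.27 in untreated cells, 10.30, 10.33 and 10.29 after 4 h of H2O2, 10.65, 10.53 and 10.60 after 8 h, and 10.17, 10.22 and 10.14 after 24 h. The 8 h difference was 0.34 ± 0.03 (adjusted p = 8.12e-08). The 4 h libraries also lay above the untreated ones, by 0.05 (adjusted p = 0.211), which was not called on the deposited values but was after quantile normalization (0.09, adjusted p = 0.0164). At 24 h GSR was below untreated cells by a narrow margin, -0.08 ± 0.03 (adjusted p = 0.049). This call was lost without untreated replicate 2 (-0.07), untreated replicate 3 (-0.07), H2O2 24 h replicate 1 (-0.08) or H2O2 24 h replicate 3 (-0.06). It was also lost with the replicate number as a block (adjusted p = 0.0601) and after quantile normalization (-0.05, adjusted p = 0.255). A fit of these groups alone did not call GSR at 24 h either.

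**Figure D2:**
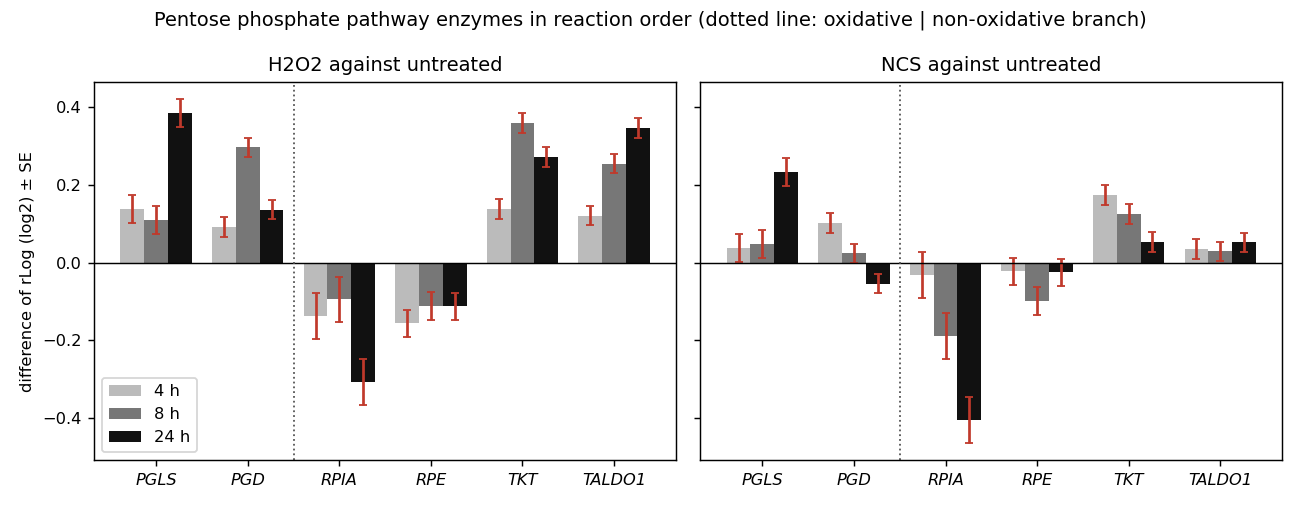
Difference from untreated cells (rLog, log2 scale) of 6 enzymes of the pentose phosphate pathway at 4, 8 and 24 h (light to dark bars) of H2O2 (left) and of NCS (right), with error bars of 1 SE (n = 3 libraries per group) and a dotted line between the oxidative and the non-oxidative branch. TALDO1 climbs at each time of H2O2 and stays near 0 under NCS, whereas PGLS is highest at 24 h under both.

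Among the NADPH genes, PGD and TKT were highest at 8 h, as GCLC, GCLM and GSR were, and were still called higher at 24 h. PGD has a processed copy elsewhere in the genome, and how reads shared with it were counted is not given in the sources used here. PGD had 11.86, 11.81 and 11.86 in untreated cells, 11.90, 11.92 and 11.97 at 4 h of H2O2, 12.19, 12.09 and 12.13 after 8 h, and 11.97, 11.98 and 11.97 after 24 h. All H2O2 libraries of PGD were above all untreated ones. Its differences were 0.09 ± 0.03 at 4 h, 0.30 ± 0.03 at 8 h and 0.14 ± 0.03 at 24 h (adjusted p = 0.00505, 2.94e-08 and 0.000175). TKT went from 13.31, 13.33 and 13.34 in untreated cells to 13.46, 13.44 and 13.49 after 4 h, 13.72, 13.61 and 13.73 after 8 h, and 13.62, 13.61 and 13.57 after 24 h. No H2O2 library of TKT overlapped with untreated cells either. The differences of TKT were 0.14, 0.36 and 0.27, each ± 0.03 (adjusted p = 0.000326, 6.57e-09 and 9.02e-08).

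TALDO1 and ME1 had their highest means at 24 h, and the step of TALDO1 from 8 to 24 h was less firm, as given below. TALDO1 was at 12.34, 12.35 and 12.39 in untreated cells, then at 12.46, 12.51 and 12.47, at 12.62, 12.55 and 12.67, and at 12.68, 12.72 and 12.72 after 4, 8 and 24 h of H2O2. Each group of TALDO1 lay above the one before without overlap. It was higher than in untreated cells by 0.12, 0.26 and 0.35, each ± 0.03 (adjusted p = 0.000584, 1.85e-07 and 1.26e-09). ME1 was at 8.22, 8.08 and 8.21 in untreated cells and at 8.14, 8.18 and 8.27 after 4 h of H2O2, which overlapped, and then at 8.39, 8.36 and 8.40 after 8 h and at 8.68, 8.70 and 8.60 after 24 h, which did not. The differences of ME1 were 0.03 ± 0.04, 0.22 ± 0.04 and 0.49 ± 0.04 (adjusted p = 0.638, 0.000373 and 1.39e-08), the last being 1.4-fold and, among the 8 genes, the largest at 24 h.

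The steps between H2O2 times separate these courses directly. From 4 to 8 h 7 genes rose and GSS fell (45.7% of all genes were called, 18% higher and 27.7% lower), with the largest step in GCLC, 0.55 ± 0.06, although GSS was not called when only these groups were fitted (-0.13, adjusted p = 0.0571). From 8 to 24 h 5 genes fell and 3 rose, where 42.6% of all genes were called, 19.4% higher and 23.2% lower. The steps of GCLM, GCLC, GSR and PGD were -0.70, -0.54, -0.42 and -0.16. GSS and ME1 rose by 0.36 and 0.27 over the same interval. The smaller steps of TKT and TALDO1 were less firm: that of TKT, -0.09, was not called without H2O2 8 h replicate 1 (-0.07), H2O2 8 h replicate 3 (-0.07) or H2O2 24 h replicate 3 (-0.07), nor after quantile normalization (-0.05), and the step of TALDO1, 0.09, was not called in a fit of these groups alone (adjusted p = 0.0796). Without H2O2 8 h replicate 2 all 8 differences of H2O2 8 h from untreated cells kept their calls, and the steps of GCLC from 4 to 8 h and from 8 to 24 h were 0.64 and -0.64.

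Under NCS the differences of the same genes were small. Against untreated cells 4 of the 8 genes were higher and none lower at 4 h of NCS, 2 were higher at 8 h, and 2 were higher and 2 lower at 24 h. Over all genes 17.2%, 23.9% and 38% were called in these comparisons, with 7.47%, 10.5% and 19.6% called higher and 9.72%, 13.3% and 18.4% lower. The share at 8 h was larger when library medians were aligned, as given below. The NCS and untreated libraries did not overlap for 5, 4 and 7 of the 8, against 30%, 33.8% and 44.5% of all genes. The median difference over the 8 genes was 0.08, 0.03 and -0.001 in order of time, and no difference reached 0.58 in size, a limit that 1%, 1.29% and 3.97% of all genes passed with the adjusted p.

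GCLM under NCS read 10.32, 10.35 and 10.36 after 4 h, 10.16, 10.25 and 10.22 after 8 h, and 10.07, 9.99 and 10.05 after 24 h. It lay above untreated cells at 4 h, overlapped with them at 8 h and lay below them at 24 h. The differences of GCLM were 0.16 ± 0.04, 0.02 ± 0.04 and -0.15 ± 0.04 (adjusted p = 0.00652, 0.844 and 0.00359). GSR ended lower still relative to untreated cells: it read 10.03, 9.98 and 10.01 at 24 h of NCS, below all libraries of the study from other groups, with a difference of -0.25 ± 0.03 (adjusted p = 1.93e-06). GCLC had 9.27, 9.29 and 9.35 after 4 h and 9.32, 9.21 and 9.35 at 24 h of NCS, all below the untreated libraries, but its differences of -0.09 and -0.10 were not called (adjusted p = 0.364 and 0.219).

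GSS climbed slowly under NCS, from 10.97, 10.98 and 10.95 after 4 h to 11.03, 11.01 and 11.06 after 8 h and 11.10, 11.12 and 11.20 after 24 h. At 8 and 24 h all libraries of GSS were above the untreated ones. The 24 h difference, 0.22 ± 0.03 (adjusted p = 2.23e-05), was near that under H2O2 at 24 h. The 8 h difference, 0.12 (adjusted p = 0.015), was lost without untreated replicate 1 (0.10), untreated replicate 2 (0.11) or NCS 8 h replicate 3 (0.10), and in a fit of these groups alone (adjusted p = 0.0532).

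PGD, TKT and ME1 were higher at 4 h of NCS, and only ME1 among them was called at 24 h. TKT was at 13.50, 13.49 and 13.52 after 4 h, 13.44, 13.47 and 13.45 after 8 h, and 13.35, 13.39 and 13.40 after 24 h. All these TKT libraries were above untreated cells, with differences of 0.18, 0.13 and 0.05, each ± 0.03, of which the first and second were called (adjusted p = 9.32e-05 and 0.00139). PGD was 0.10 ± 0.03 above untreated cells at 4 h (adjusted p = 0.00671) and -0.05 from them at 24 h (adjusted p = 0.0975), a difference that was called without untreated replicate 2 (-0.07, adjusted p = 0.0485). TALDO1 stayed within 0.06 of untreated cells at all times of NCS and was called at none, but quantile normalization made it higher by 0.08 at both 8 h and 24 h, with adjusted p-values of 0.0122 and 0.00697. ME1 had 8.32, 8.33 and 8.32 at 4 h of NCS and 8.53, 8.43 and 8.46 after 24 h, both clear of the untreated libraries. At 8 h ME1 also did not overlap with them, and its difference of 0.10 was not called (adjusted p = 0.0843). After quantile normalization ME1 was called at 8 h (0.12, adjusted p = 0.0386). Its 24 h difference was 0.30 ± 0.04 (adjusted p = 7.97e-06), while the 4 h difference, 0.16 (adjusted p = 0.0121), was lost without untreated replicate 2 (0.11, adjusted p = 0.0787) and in a fit of these groups alone (adjusted p = 0.0646).

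Between NCS times the steps were small. From 4 to 8 h 3 of the 8 genes fell and none rose, where 13.7% of all genes were called, 6.16% higher and 7.5% lower. Those calls rested on single libraries: GCLM (-0.14) lost its call without NCS 4 h replicate 2 (-0.13) or 3 (-0.13) or NCS 8 h replicate 1 (-0.11), and GSR (-0.12) without NCS 4 h replicate 1 (-0.11) or 2 (-0.09) or NCS 8 h replicate 2 (-0.11). PGD (-0.08) lost it without any 1 of the 3 NCS 4 h libraries (-0.07, -0.08 and -0.08) or NCS 8 h replicate 2 (-0.07) or 3 (-0.07). From 8 to 24 h 4 genes fell and 2 rose, where 29.9% of all genes were called, 14.9% higher and 15% lower. When library medians were aligned, more of all genes were called in this step and fewer of the 8 fell, as given below. GCLM and GSR fell, by -0.17 ± 0.04 and -0.19 ± 0.03, and ME1 rose by 0.20 ± 0.04, whichever library was left out. GSS (0.11) was not called without NCS 8 h replicate 1 (0.11) or 2 (0.10) or NCS 24 h replicate 3 (0.08), and PGD (-0.08) not without NCS 8 h replicate 1 (-0.06) or NCS 24 h replicate 1 (-0.07) or 2 (-0.07). TKT (-0.07) was not called without NCS 8 h replicate 1 (-0.08), 2 (-0.06) or 3 (-0.07) or NCS 24 h replicate 1 (-0.06) or 2 (-0.08).

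**Figure D3:**
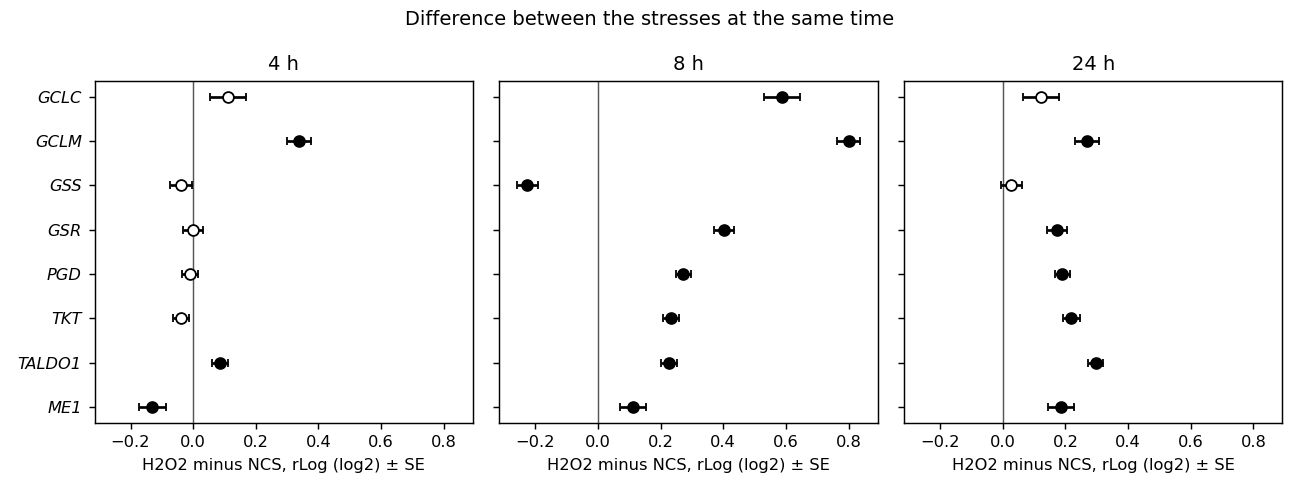
H2O2 minus NCS at the same time (rLog, log2 scale) for each of the 8 genes at 4, 8 and 24 h, with error bars of 1 SE (n = 3 libraries per group), a line at 0, and filled points for differences called at an adjusted p under 0.05. At 8 h GCLM and GCLC stand highest and GSS alone is below 0, and at 24 h TALDO1 and GCLM stand highest.

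Set directly against each other at the same time, the stresses differed in all 8 genes at 8 h. Of these calls, that of ME1 turned on single libraries. H2O2 was higher than NCS in 2 of the 8 genes and lower in 1 at 4 h, higher in 7 and lower in 1 at 8 h, and higher in 6 and lower in none at 24 h. In these comparisons 44.4%, 34.1% and 21.9% of all genes were called, with 26.3%, 18.7% and 11% higher under H2O2 and 18%, 15.4% and 10.9% lower. The share at 24 h was larger when library medians were aligned, as given below. The libraries of the stresses did not overlap for 5, 8 and 6 of the 8 genes at the 3 times, against 50.1%, 40.8% and 36.5% of all genes. At 4 h the gap was mainly in GCLM, 0.34 ± 0.04 (adjusted p = 7.03e-07). TALDO1 and ME1 also differed at 4 h, by 0.09 and -0.13 (adjusted p = 0.00874 and 0.0163), but after quantile normalization neither was called (0.04 and -0.09), nor was ME1 without H2O2 4 h replicate 1 (-0.10). GCLC differed by 0.11 at 4 h, with no overlap between the groups, and was not called (adjusted p = 0.13), although it was after quantile normalization (0.15, adjusted p = 0.0416) and in a fit of these groups alone (adjusted p = 0.0224). Quantile normalization also called TKT lower at 4 h (-0.08, adjusted p = 0.00887, against -0.04 as deposited).

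At 8 h the gap of GCLM was 0.80 ± 0.04 (adjusted p = 1.01e-10) and that of GCLC 0.59 ± 0.06 (adjusted p = 3.89e-07). GSR followed with 0.40 ± 0.03 (adjusted p = 2.04e-08). PGD, TKT and TALDO1 differed by 0.27, 0.23 and 0.23, and GSS by -0.23 ± 0.03 (adjusted p = 3.43e-05). ME1 was higher by 0.11 (adjusted p = 0.0449), but this call was lost without H2O2 8 h replicate 1 (0.11), replicate 2 (0.12, adjusted p = 0.0509) or replicate 3 (0.11), without NCS 8 h replicate 2 (0.11) or replicate 3 (0.09), and with the replicate number as a block (adjusted p = 0.0502). Without H2O2 8 h replicate 2 the gap was 0.68 for GCLC and 0.84 for GCLM.

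By 24 h the largest gap was in TALDO1, 0.30 ± 0.03 (adjusted p = 7.91e-08), ahead of GCLM at 0.27 ± 0.04 (adjusted p = 3.47e-05). TKT, PGD, ME1 and GSR were higher under H2O2 by 0.22, 0.19, 0.19 and 0.17. GSS stood at nearly the same value under both stresses (0.03 ± 0.03, adjusted p = 0.697) and GCLC differed by 0.12 ± 0.06 (adjusted p = 0.162). For GSR both groups had a 24 h mean under that of untreated cells, as given above (-0.08 and -0.25).

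Ordering the 7 group means of each gene gave H2O2 8 h the top place for GCLC, GCLM, GSR, PGD and TKT, and H2O2 24 h the top place for GSS, TALDO1 and ME1. H2O2 8 h did not overlap with the next group for GCLC, GCLM, GSR and PGD, while for TKT it overlapped with H2O2 24 h. NCS 24 h had the lowest mean of GCLC, GCLM, GSR and PGD, overlapping with the next group for GCLC and PGD. Untreated cells had the lowest mean of TKT, TALDO1 and ME1, and overlapped with the next group for TALDO1 and ME1. GSS was lowest at H2O2 8 h. For GSS the top place was shared, since H2O2 24 h and NCS 24 h overlapped.

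Genes of the circuit around NRF2 were called under both stresses, though not all of them at every time. Only their mRNA was measured, and their part in the course of this set was not tested. Of 7 genes of the NRF2 circuit, 6 were higher and 1 lower at 4 h of H2O2, 7 higher at 8 h and 3 higher at 24 h, with medians of 0.51, 0.32 and 0.06 where the median over all genes was within 0.01 of 0. NCS gave 2, 3 and 4 higher and 1 lower at each time. The shares of all genes called higher were 26.2%, 18.8% and 20.2% under H2O2 and 7.47%, 10.5% and 19.6% under NCS, and the shares called lower 19.7%, 18.6% and 19.9%, and 9.72%, 13.3% and 18.4%. These are the shares beside which the counts of this list and of the 5 that follow stand. In either direction 42.9% of this list was called at 24 h of H2O2, near the 40% of all genes. NFE2L2, which encodes NRF2, rose by 0.24 and 0.31 at the first and second times and was not called at 24 h (0.06, adjusted p = 0.267). Under NCS the difference of NFE2L2 was -0.23 at 4 h and -0.12 at 8 h, both called. KEAP1, the adaptor that marks NRF2 for degradation, differed by -0.09 and then by 0.17 (4 and 8 h of H2O2), both called, and was lower at 24 h of NCS (-0.14). BACH1, a repressor that competes for the same DNA element, was higher by 0.51 and 0.24 at these times of H2O2, and by 0.14 and 0.12 at 8 and 24 h of NCS. The small MAF genes MAFK, MAFG and MAFF, whose products pair with NRF2 or BACH1, rose by 1.09, 1.08 and 1.03 after 4 h of H2O2, when NCS called MAFK (0.20) but not the other two. At 24 h of NCS MAFG and MAFF were higher by 0.10 and 0.13, against 0.37 and 0.19 under H2O2. SQSTM1, the autophagy receptor that can sequester KEAP1, was higher by 0.44, 0.71 and 0.87 under H2O2 and by 0.19, 0.11 and 0.32 under NCS, all called.

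A list of 10 textbook NRF2 targets outside the set gave a reference for size and timing. All 10 were higher after 4 and 8 h of H2O2 and 9 after 24 h, with medians of 0.30, 0.51 and 0.58, while NCS called 3, 3 and 4 of them higher and 1 lower at 24 h. They did not share one time course either. HMOX1, heme oxygenase, was highest after 4 h (3.44, then 2.50 and 0.76). SRXN1, which repairs oxidized peroxiredoxins, and TXNRD1, thioredoxin reductase, peaked at 8 h (0.93 and 1.06). NQO1, a quinone reductase, and FTH1, the ferritin heavy chain, were highest at 24 h (0.78 and 0.85), as was the exporter ABCC3 (1.60). OSGIN1, an oxidative stress-induced growth inhibitor, was higher by 0.56, 1.13 and 0.41 under H2O2 and rose under NCS too, by 0.59 at 4 h and 0.48 at 8 h (0.15 at 24 h was not called). H2O2 minus NCS in OSGIN1 was -0.03 at 4 h, which was not called, 0.65 at 8 h and 0.26 at 24 h. HMOX1 and ABCC3 were called higher at each time of NCS as well, HMOX1 by 0.88, 0.45 and 0.27 and ABCC3 by 0.32, 0.30 and 0.78. At 24 h of NCS FTH1 was higher by 0.17 and TXNRD1 was lower (-0.25), while SRXN1 and NQO1 were called at no time of NCS.

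**Figure D4:**
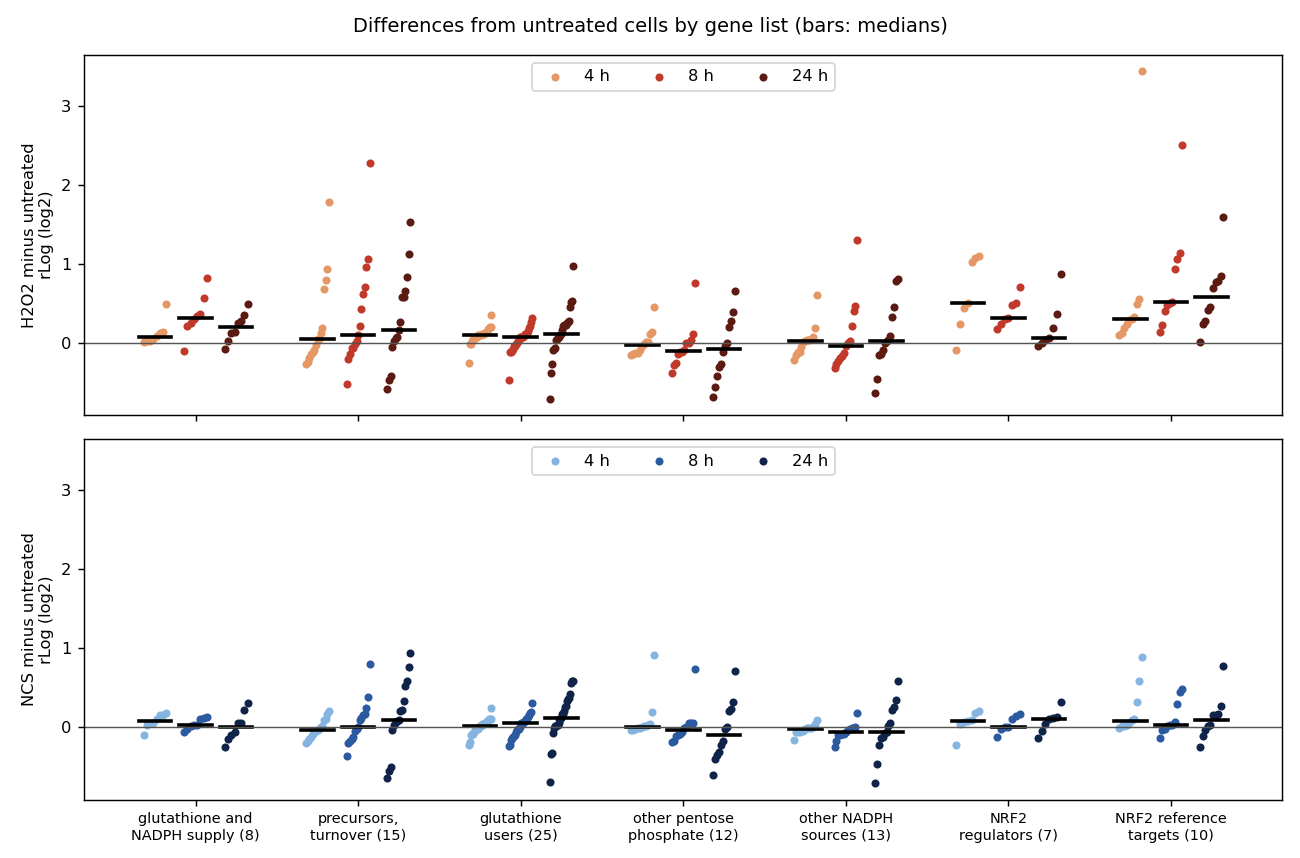
Difference from untreated cells (rLog, log2 scale, vertical axis) of every gene of the 8 and of 6 other lists, with H2O2 in the upper panel and NCS in the lower one, a point for each gene at 4, 8 and 24 h (light to dark) and a bar at the median of each list. All 10 NRF2 targets lie above 0 under H2O2, HMOX1 at 3.44 being the highest point, while the other pentose phosphate and NADPH genes lie on both sides of 0.

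Of 15 genes that feed or break down glutathione, 6, 7 and 8 were higher and 5, 3 and 3 lower at 4, 8 and 24 h of H2O2, with medians of 0.05, 0.10 and 0.16. NCS gave 2, 5 and 8 higher and 3, 4 and 3 lower, so that the counts at 24 h were equal under both stresses. In either direction 73.3%, 66.7% and 73.3% of the list were called under H2O2, against 45.9%, 37.4% and 40% of all genes, while the 3 lower at 8 and at 24 h are near the share over all genes. SLC7A11, the exchanger subunit that brings in cystine, rose by 0.68, 0.96 and 0.66, and its partner SLC3A2 by 0.79, 1.06 and 0.83. Under NCS SLC7A11 was at -0.20 at 4 h and was not called at 8 or 24 h, and H2O2 exceeded NCS by 0.87, 1.00 and 0.69. SLC3A2 was higher by 0.16 and 0.21 at 8 and 24 h of NCS. The cystine carrier thus stayed up at 24 h of H2O2, when GCLC was not called. CBS, the first enzyme of the route from homocysteine to cysteine, rose to 1.12 at 24 h of H2O2 and 0.76 at 24 h of NCS. The largest difference of the list was in a gene that breaks glutathione down: CHAC1, a glutathione-degrading cyclotransferase, was higher by 1.79, 2.27 and 1.53 under H2O2, and under NCS by 0.80 at 8 h and 0.94 at 24 h, after -0.12 at 4 h, which was not called. H2O2 exceeded NCS in CHAC1 by 1.91, 1.48 and 0.59 at the 3 times. GGT1, which cleaves glutathione outside the cell, was higher by 0.94, 0.70 and 0.58 under H2O2 and by 0.38 and 0.59 at 8 and 24 h of NCS. GGCT, which acts on gamma-glutamyl amino acids, was lower at 24 h of H2O2 and of NCS (-0.42 and -0.65), and by a smaller step at 8 h of NCS (-0.15), after 0.13 at 4 h of H2O2.

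Of 25 genes of enzymes that use glutathione, 12 were higher and 1 lower at 4 h of H2O2, then 8 and 5, and 13 and 5 at 24 h. Counts under NCS were 1 higher and 3 lower, 3 and 6, and 14 and 3 in order of time. The share called in either direction was 52%, 52% and 72% under H2O2, against 45.9%, 37.4% and 40% of all genes, and the 5 lower at 8 and at 24 h are near the share over all genes. Under NCS it was 16%, 36% and 68%, against 17.2%, 23.9% and 38%. The median was 0.12 at 24 h of H2O2 and 0.11 at 24 h of NCS. Glutathione peroxidase GPX1 was higher by 0.53 and 0.58 at 24 h of H2O2 and of NCS, and glutaredoxin GLRX by 0.97 and 0.56. GPX3, the secreted peroxidase, was higher by 0.52 at 24 h of H2O2 and 0.59 at 24 h of NCS. GSTZ1, which also acts in tyrosine breakdown, was higher by 0.35 and GSTM4 by 0.20 at 4 h of H2O2, and both were higher at 24 h of either stress, GSTZ1 by 0.23 under H2O2 and 0.36 under NCS and GSTM4 by 0.27 under each. GSTCD was lower at each time of H2O2 (-0.26, -0.47 and -0.71) and of NCS (-0.23, -0.24 and -0.69).

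Around PGD, TKT and TALDO1, of 12 other genes of the pentose phosphate pathway, 3, 2 and 4 were higher and 3, 6 and 6 lower at 4, 8 and 24 h of H2O2, with medians of -0.03, -0.10 and -0.08, and NCS gave 2, 1 and 4 higher and 0, 5 and 6 lower. The 6 called at 4 h of H2O2, 50% of the list, are near the 45.9% of all genes, whereas at 8 and 24 h 66.7% and 83.3% were called against 37.4% and 40%. Among the 3 higher at 4 h was TKTL1, which was barely detected and moved by 0.007. PGLS, the lactonase that acts just before PGD, was higher by 0.14, 0.11 and 0.38 under H2O2 and by 0.23 at 24 h of NCS. The enzymes that carry ribulose 5-phosphate onward did not follow TKT and TALDO1: RPE was lower at each time of H2O2 (-0.16, -0.11 and -0.11) and at 8 h of NCS (-0.10), and RPIA was lower at 24 h of H2O2 (-0.31). PRPS1 and PRPS2, which draw ribose 5-phosphate off toward nucleotides, were lower at 24 h of H2O2 (-0.56 and -0.69). At 24 h of NCS PRPS1, PRPS2 and RPIA were lower too (-0.31, -0.61 and -0.41). The gene of TIGAR, a p53-inducible phosphatase that favors the pathway over glycolysis, is listed under its older symbol C12orf5 and was higher at all times of both stresses, by 0.45, 0.75 and 0.66 under H2O2 and by 0.91, 0.74 and 0.72 under NCS. H6PD, which acts in the endoplasmic reticulum, was lower at 8 h of H2O2 (-0.38) and higher at 24 h of H2O2 and of NCS (0.28 and 0.31).

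A list of 14 genes covered other NADPH sources and enzymes linked to them, and 13 were matched. It also holds genes whose enzymes do not make NADPH themselves, such as NADK and MTHFD1L. Of the 13, 1, 3 and 4 were higher and 3, 6 and 5 lower at 4, 8 and 24 h of H2O2. Under NCS 0, 1 and 4 were higher and 1, 5 and 7 lower. At 4 h of H2O2 the share called, 30.8%, was below the 45.9% of all genes, and at 8 and 24 h it was 69.2% against 37.4% and 40%. The medians were 0.02, -0.04 and 0.03 under H2O2 and -0.05 at 24 h of NCS. The largest rises under H2O2 were in mitochondrial enzymes of folate metabolism. MTHFD2 was higher by 0.60, 1.30 and 0.78, MTHFD1L by 0.47 at 8 h, and ALDH1L2, which makes NADPH from formyl-folate, by 0.81 at 24 h. The mean of MTHFD1L was 10.93 in untreated cells, 11.40 at 8 h of H2O2 and 11.38 at 24 h of H2O2. At 24 h of NCS MTHFD2, MTHFD1L and ALDH1L2 were higher as well, by 0.26, 0.34 and 0.59, while ALDH1L2 had been lower at 4 and 8 h of NCS (-0.16 and -0.08). The cytosolic MTHFD1 was lower at 24 h of H2O2 and of NCS (-0.64 and -0.71). NADK, the kinase that makes NADP+ from NAD+, was lower at each time of H2O2 (-0.16, -0.19 and -0.09), as was NNT, the transhydrogenase of the inner mitochondrial membrane (-0.22, -0.27 and -0.14). Under NCS NADK and NNT were called lower at 8 h (-0.10 each) and at 24 h (-0.13 and -0.08). The mitochondrial IDH2 was lower at 24 h of H2O2 and of NCS, by nearly the same step (-0.47 and -0.46), and at 8 h of H2O2 (-0.23).

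Without H2O2 8 h replicate 2, the counts of genes higher and lower at 8 h of H2O2 than in untreated cells were the same in 5 of these 6 lists. The exception was the list of enzymes that use glutathione, where GSTA4 (adjusted p = 0.105) and MGST1 (adjusted p = 0.0813) lost their calls by limma. The largest shift was in CHAC1, from 2.27 to 2.46.

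The genes most like each of the 8 were taken by Pearson correlation over the 21 libraries, among genes with a mean of at least 5. These correlations are descriptions over libraries that share treatments and a normalization. GCLM was closest to RSL1D1 (r = 0.974), a nucleolar protein gene, and to SRXN1 (0.958). GCLC was closest to the splicing factor gene RBM39 (0.959) and to ABHD5 (0.951), an activator of fat breakdown, and GSR to the insulin receptor substrate IRS2 (0.956) and the kinase DYRK2 (0.953). PGD was closest to TXNRD1 (0.933) and the phosphatase DUSP5 (0.919), and TKT to PGF (0.938) and ALAS1 (0.923), which starts heme synthesis. TALDO1 was closest to the ferritin genes FTH1 and FTL, both at 0.976. ME1 was closest to DHRS7 (0.944) and to EPAS1 (0.934), the gene of the hypoxia factor HIF-2alpha, and GSS to TMEM8B (0.949) and MAN1B1 (0.948).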

How the data were processed

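Per the labels and the methods of the study, mRNA libraries of hTERT-HPNE cells (TruSeq Stranded mRNA) were aligned with HISAT2 to hg19, reads were counted per gene with HTSeq, and DESeq2 made the rLog values. The authors deposited these log2 values for 23368 genes in 21 libraries, without counts, so the depth per library is unknown and no counting interval was given. The annotation and the strand setting are not given in the sources used here. The 8 genes, the other gene lists and the tests were chosen with earlier results of these data known.

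limma 3.58.1 in R 4.3.3 fitted the 7 groups at once with a mean-variance trend. Two-sided p-values for 15 comparisons were adjusted by Benjamini-Hochberg over 19694 genes, after 3674 genes at 0 in every library were left out. A gene was called at an adjusted p under 0.05. Genes named from the lists were the up to 3 with the largest difference among those called at H2O2 4, 8 and 24 h and NCS 24 h, with NFE2L2, KEAP1, BACH1 and SLC7A11 always given and their other times added where the course was described. One item of the rule is not reported here. The most similar genes were the 2 with the highest correlation. The script was tested on simulated data. Promoters came from RefSeq, GRCh38.p14, and no other coordinates are printed. Deviations of same-numbered replicates from their group means correlated only weakly (mean r = 0.0328 over 63 pairs, from -0.176 to 0.253). The mean for different numbers, -0.0164, is tied to that value by the centering within groups and is no separate comparison. The numbers were not taken as pairs in the main fit, and a replicate block was fitted as an alternative. The alternatives were library medians aligned, quantile normalization, a mean of at least 5, no trend, a fit of only the groups compared, a replicate block, a limit of 0.58 on the difference, and each library left out.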

Additional observations from a re-analysis of the deposited data

Results flagged for a closer look

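The H2O2-minus-NCS difference changed in 4 of the 8 genes from 8 to 24 h and in 5 from 4 to 24 h. Over all genes 21.4% and 39.4% were called in these comparisons. The test was of the change itself (limma, an interaction of treatment and time, Benjamini-Hochberg adjusted over all genes). Between 8 and 24 h the H2O2-minus-NCS difference of GCLM changed by -0.53 ± 0.05 (SE, adjusted p = 3.36e-06), from 0.80 to 0.27. That of GCLC changed by -0.47 ± 0.08 (adjusted p = 0.00051), from 0.59 to 0.12, and that of GSR by -0.23 ± 0.04 (adjusted p = 0.000928), from 0.40 to 0.17. GSS changed the other way over this interval, by 0.25 ± 0.05 (adjusted p = 0.000838), from -0.23 to 0.03. In the same test 4216 of all 19694 genes (21.4%) were called, and 9077 with library medians aligned. PGD and TALDO1 were not called over this interval (-0.08 and 0.07), but PGD was called with library medians aligned (-0.13, adjusted p = 0.00983) and without H2O2 8 h replicate 2 (-0.11, adjusted p = 0.0263), and TALDO1 after quantile normalization (0.14, adjusted p = 0.00394) and without H2O2 8 h replicate 3 (0.10).

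Between 4 and 24 h the difference grew in the 4 NADPH genes and in GSR, where 39.4% of all genes were called. ME1 changed by 0.32 ± 0.06 (adjusted p = 0.000309), from -0.13 to 0.19, so that it was lower under H2O2 than under NCS at 4 h and higher at 24 h. The 4 h difference of ME1 was not called after quantile normalization (-0.09) or without H2O2 4 h replicate 1 (-0.10). TKT changed by 0.26 ± 0.04 (adjusted p = 2.61e-05) and TALDO1 by 0.21 ± 0.04 (adjusted p = 0.000113). PGD changed by 0.20 ± 0.04 (adjusted p = 0.000174) and GSR by 0.17 ± 0.04 (adjusted p = 0.00374). Each of these 9 changes kept its call when any 1 library was left out.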

How the results depend on the processing

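Of 120 results for the 8 genes, 80 were called and 63 of these kept the call in every setting except the 0.58 limit. The limits are these: rLog differences are shrunken, depth is unknown, groups hold 3 libraries, and small differences near 0.1 turn on single libraries. With medians aligned, genes called were 7618 (NCS 8 h against untreated), 7585 (H2O2 against NCS, 24 h), 9825 (NCS 24 against 8 h) and 9077 (change of H2O2 minus NCS, 24 against 8 h), members lower at NCS 24 against 8 h were 2, GCLM at NCS 8 h became -0.002 and the change of GCLC from 4 to 24 h -0.014. Quantile normalization gave 0 members lower at H2O2 24 h, 4 higher at NCS 8 h and 2 higher in the change from 8 to 24 h. It also gave GCLC 0.010 at NCS 8 h, GSR 0.027 for H2O2 against NCS at 4 h, TALDO1 0.019 at NCS 8 against 4 h, and changes of -0.048 for GCLC (4 to 24 h) and 0.052 for TKT (8 to 24 h). The replicate block left 0 members lower at H2O2 24 h and ended the call of ME1 between stresses at 8 h; it changed no other call. A fit of only the groups compared gave 0 members lower at H2O2 8 h, at H2O2 24 h and at H2O2 8 against 4 h, and 1 higher at NCS 8 h. The cause was not tested in these cases. A limit of 0.58, by its construction, left 1 member higher at H2O2 8 h, 2 higher for H2O2 against NCS at 8 h, 1 lower at H2O2 24 against 8 h and 0 elsewhere. Genes called were then 574, 480 and 898 (H2O2 at 4, 8, 24 h), 197, 254 and 781 (NCS), 517, 181 and 90 (H2O2 against NCS), 439 and 535 (H2O2 steps), 29 and 341 (NCS steps), and 617 and 106 (changes from 4 and from 8 to 24 h). With 1 library left out, members higher ranged from 1 to 2 at NCS 8 h, at NCS 24 against 8 h and in the change from 8 to 24 h. Members lower ranged from 0 to 1 at H2O2 8 h, H2O2 24 h and H2O2 against NCS at 4 h, from 0 to 2 at NCS 8 against 4 h and from 2 to 4 at NCS 24 against 8 h. Uncalled differences that crossed 0 were GSS (-0.005 to 0.047) and ME1 (-0.018 to 0.057) at H2O2 4 h, GSR (-0.027 to 0.021) and PGD (-0.030 to 0.005) for H2O2 against NCS at 4 h, TALDO1 (-0.015 to 0.008) at NCS 8 against 4 h, GCLC (-0.034 to 0.048) from 4 to 24 h and TKT (-0.052 to 0.007) from 8 to 24 h. A mean of at least 5 and no trend changed no call of the 8 genes.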

Other observations

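Over the 21 libraries the members fell into no single pattern. GCLM correlated with GSR at 0.893, with PGD at 0.877 and with GCLC at 0.837, and PGD with TKT at 0.906. GSS had negative correlations with the other glutathione genes, at -0.831 with GSR, -0.721 with GCLM and -0.639 with GCLC, and weaker ones with PGD (-0.525) and TKT (-0.217). ME1 had a correlation of -0.106 with GCLM and 0.683 with TALDO1. The libraries share treatments, times and a normalization, so these values describe the course and were not tested.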
